A study of Mus musculus with 9 samples.

Results

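Chromatin accessibility was described at 35 cytokine and chemokine genes in 3 mouse osteosarcoma cell lines. The genes were taken from a list of secreted signalling proteins: the interleukins Il1a, Il1b, Il1rn, Il6, Il7, Il11, Il15, Il18 and Il33, the factors Lif, Osm, Tnf, Tslp, Csf2 and Csf3, 10 CC chemokines, 9 CXC chemokines and Cx3cl1. They are 35 of the 21887 protein-coding genes in the RefSeq table for GRCm38.p6. For each gene the peaks within the gene span plus 50 kb on either side (its window) were counted, and an end of a gene was called open where a library's peak lay at most 1000 bp from it.

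The libraries were made by ATAC-seq, in which the Tn5 transposase inserts adapters into accessible DNA, from lines derived from primary osteosarcomas, which are bone tumours. The R172H line carried p53R172H on 1 allele and no p53 on the other, the R245W line carried p53R245W on 1 allele and none on the other, and the null line carried no p53. All 3 lines shared 1 medium, DMEM with serum and antibiotics, and each gave 3 libraries, so 9 peak lists were used. Each genotype is 1 line, so genotype and line cannot be told apart, and every statement about a genotype below is a statement about that line. Whether the 3 libraries of each line were separate cultures is not stated, so p-values measure only the spread between these libraries, which may be technical.

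Cytokines and chemokines are secreted proteins that act on receptors of other cells or of the cell that made them. Chemokines of the CXC and CC classes draw leukocytes along a gradient, and most of their genes lie side by side in clusters left by repeated gene duplication. Many of the genes are silent until transcription factors such as NF-kB and AP-1 bind their promoters after stimulation, and in bone several of them act on osteoclast formation and osteoblast growth.

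A library had 65199 to 79424 peaks, with the null line lowest (65199, 65942 and 65772) and the R245W line highest (76868, 79424 and 75314). The windows of the 35 genes held 207 to 219 peaks in each of the mutant libraries and 190, 199 and 193 in the null libraries. Read depth is unknown, and a peak that is missing from a list lay under the threshold of that list, so its absence is not absence of accessibility. The strength of a peak is given below as the percentile of its −log10 q-value within its own list, where 100 is the strongest, or as the authors' fold enrichment. Both describe the peak inside its list, and percentiles from lists of different lengths are set side by side without being read as a change. How reads that map to several places were treated is not given in the sources used here, which bears on chemokine genes that are near copies of each other.

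Promoter sequences were available from RefSeq (GRCm38.p6) for 23 of the 35 genes, as 27 stretches. The 6 below are shown because the lines differed in peaks there or, for Cxcl1, because a close relative of such genes was open in every library. Each is the 150 bases before the start site, 5′ to 3′, on the strand of the gene, and capitals mark matches to NF-kB, AP-1 (TGANTCA) and TATA box (TATAAA) motifs. The NF-kB motif is written with letters for base classes and is named only, and all motifs were searched on both strands of the 250 bases before each start.
Cxcl1, chr5:90891095-90891244, plus strand: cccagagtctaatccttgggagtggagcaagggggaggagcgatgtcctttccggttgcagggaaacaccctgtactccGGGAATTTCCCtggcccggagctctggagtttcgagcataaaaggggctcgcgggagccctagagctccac
Cxcl2, chr5:90903749-90903898, plus strand: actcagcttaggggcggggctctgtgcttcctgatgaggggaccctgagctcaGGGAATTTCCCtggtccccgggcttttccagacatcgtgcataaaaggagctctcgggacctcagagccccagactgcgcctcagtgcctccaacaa
Cxcl3, chr5:90785951-90786100, plus strand: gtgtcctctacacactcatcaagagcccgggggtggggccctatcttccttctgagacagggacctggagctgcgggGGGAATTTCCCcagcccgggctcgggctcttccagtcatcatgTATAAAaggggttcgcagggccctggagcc
Il1rn, start at 24336860, chr2:24336710-24336859, plus strand: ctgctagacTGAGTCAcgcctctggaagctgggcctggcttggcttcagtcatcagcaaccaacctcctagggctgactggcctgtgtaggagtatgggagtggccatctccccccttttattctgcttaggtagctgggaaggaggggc
Il33, start at 29925113, chr19:29924963-29925112, plus strand: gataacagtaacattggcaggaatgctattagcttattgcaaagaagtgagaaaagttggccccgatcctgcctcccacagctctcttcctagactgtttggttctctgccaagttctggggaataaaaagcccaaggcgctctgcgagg
Il33, start at 29945790, chr19:29945640-29945789, plus strand: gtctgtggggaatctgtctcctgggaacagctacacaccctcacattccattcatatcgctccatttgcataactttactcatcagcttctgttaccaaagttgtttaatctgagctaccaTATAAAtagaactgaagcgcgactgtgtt

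The longest run of bases common to the Cxcl1, Cxcl2 and Cxcl3 promoters was GGGAATTTCCC, 11 bases long, which is a match to the NF-kB motif. It lay from base 71 to 61 before the Cxcl1 start, from 97 to 87 before the Cxcl2 start and from 73 to 63 before the Cxcl3 start. The same 11 bases occurred in 14 of 32851 promoters in the table (0.0426%), and among the 23 of the 35 genes with a promoter in the table only in these 3. The peaks at these 3 starts differed between the lines although the run of bases is the same, as described under the CXC genes.

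Of the 27 promoter stretches, 8 (29.6%) held an NF-kB match, beside 7.25% of all 32851 promoters. AP-1 was matched in 7 (25.9%, beside 6.75%) and the TATA box in 11 (40.7%, beside 12.4%). The interferon-stimulated element GAAANNGAA was found in 5 (18.5%, beside 7.13%) and the C/EBP motif TTNNGNAA in 14 (51.9%, beside 36.8%). The STAT motif TTCNNNGAA was found in 1 (3.70%, beside 7.02%), and the unit that is repeated in the p53 response element, named only for the same reason as NF-kB, in 4 (14.8%, beside 7.13%). Of the starts of Il1rn, 2 lie 80 bases apart and share most of their stretch, and a match of letters is not a bound site. No comparison between these shares and the rest of the genome was tested.

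Across the whole group, 14 of the 35 genes (40.0%) were open at an end in every library, beside 55.0% of all protein-coding genes, and 11 (31.4%) had none open in any library, beside 31.3%. The 14 were Il6, Il7, Il15, Csf3, Ccl2, Ccl7, Ccl8, Ccl9, Ccl20, Cxcl1, Cxcl10, Cxcl12, Cxcl16 and Cx3cl1. The 11 were Il1a, Il1b, Il11, Osm, Tnf, Csf2, Ccl3, Ccl5, Ccl6, Ccl11 and Cxcl14. The other 10 were open in some libraries only, and they hold the differences between lines described below.

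Where the lines were compared in pairs, a gene was counted as open in a library when either of its ends was, and was called when open in 3 of 3 libraries of one line and 0 of 3 of the other. Single ends that differ while the other end of the gene does not are left out of these counts and given with their genes below. The R172H line had 3 such genes against the null line (Il1rn, Cxcl9 and Il33), which is 8.57% of the 35 genes beside 3.19% of all genes. The null line had 3 against R172H (Cxcl5, Cxcl3 and Cxcl2), also 8.57%, beside 1.27%. R172H against R245W gave Il1rn, Cxcl9 and Il33 again (8.57% beside 1.61%), and R245W against R172H gave 4, Cxcl5, Cxcl3, Cxcl2 and Lif (11.4% beside 2.57%). Between R245W and null none of the 35 genes was called in either direction by both ends together, where 3.30% and 0.544% of all genes were. Apart from Lif, the called genes were thus interleukin-1 family genes or CXC chemokines, and every gene called in this way was called between R172H and another line. Read end by end, the Tslp and Ccl7 higher-coordinate ends also split R172H from both other lines, and the Cxcl3 ends and the Lif start split R245W from null. The lower-coordinate end of Tslp was open in 3 R245W libraries, 2 null libraries and no R172H library.

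The 27 promoter stretches, which reach from 250 bases before to 50 after a start, gave a narrower reading of the same differences. Against null, R172H had 4 called stretches (1 of Il1rn, 1 of Il11 and both of Il33; 14.8%, beside 2.90% of all stretches) and R245W had 2 (Cxcl3 and Il11; 7.41%, beside 3.21%). Null had 2 against R172H (Cxcl2 and Il18; 7.41%, beside 1.10%) and 0 against R245W (beside 0.343%). R172H had 3 against R245W (1 of Il1rn and both of Il33; 11.1%, beside 1.28%), and R245W had 3 against R172H (Cxcl2, Cxcl3 and Il18; 11.1%, beside 2.38%). In all 9 libraries 5 stretches were open, those of Cx3cl1, Cxcl1, Cxcl10, Cxcl12 and Il6 (18.5%, beside 51.5%). Il1rn, Il33, Cxcl2 and Cxcl3 were therefore called by the start itself, and Cxcl9 and Lif only by the distance to a gene end.

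**Figure D1:**
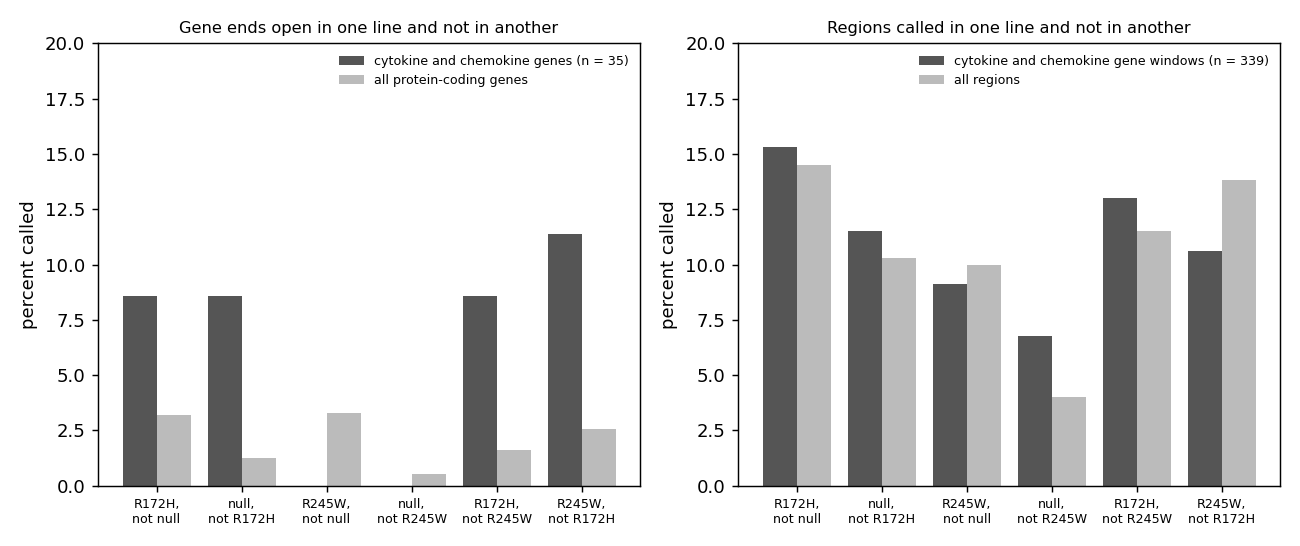
Bars give the percent of genes by either end (left, of 35 genes or of all protein-coding genes) and of regions (right, of 339 regions in the windows or of all regions) called in 3 of 3 libraries of the first line and 0 of 3 of the second. On the left, the dark bars stand at 0 for both directions between R245W and null and at 8.57% to 11.4% for the 4 directions with R172H. On the right, dark bars stand between 6.78% and 15.3% and light bars between 4.03% and 14.5%.

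For regions, made by merging all 9 lists where peaks overlapped by 1 bp or more, the windows are set beside the genome. Of 339 regions in the windows, 52 (15.3%) were called in R172H and not null, beside 14.5% of all regions, and 39 (11.5%) in null and not R172H, beside 10.3%. R245W against null gave 31 (9.14%, beside 10.0%) and the reverse 23 (6.78%, beside 4.03%). R172H against R245W gave 44 (13.0%, beside 11.5%) and the reverse 36 (10.6%, beside 13.8%). Of the 339 regions, 115 were called in all 9 libraries (33.9%, beside 29.4%). The 3 R172H libraries alone shared 37 (10.9%, beside 9.83%), those of R245W 17 (5.01%, beside 5.79%) and those of null 16 (4.72%, beside 2.74%). R172H and R245W without null shared 11 (3.24%, beside 3.04%), R172H and null without R245W 4 (1.18%, beside 0.858%), and R245W and null without R172H 17 (5.01%, beside 6.21%). The other 122 were called in part of a line's libraries. The nearest gene was one of the 35 for 187 regions (55.2%), and 96 regions lay in more than 1 window because the genes cluster.

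The number of peaks in a window was compared over the 3 lines with an exact permutation test (280 partitions of the libraries, one-sided, Benjamini-Hochberg adjustment over 19290 genes). Of the 35 genes 6 passed (17.1%), beside 9.63% of all genes: Il1b, Il1rn, Il15, Cxcl12, Cxcl14 and Cxcl16, each with an adjusted permutation p of 0.0371 at the smallest p the design allows, 0.00357. Before adjustment 26 of the 35 genes had a p under 0.05 (74.3%), beside 52.7% of all genes. The median count over the 35 genes was 8.67 in R172H, 8 in R245W and 7.67 in null, and over all genes 7.67, 8 and 7. In a 20 kb window no gene of 18570 passed. With all lists cut to equal length 8 of the 35 genes passed, beside 9.99% of all genes, and only Il1rn was among the 6. With peaks of a −log10 q of 5 or more 6 passed, beside 10.4% of all genes. Of these only Il1b and Il1rn were among the first 6, and Cxcl12, Cxcl14, Cxcl16 and Il15 lost their calls. Without null replicate 1 or null replicate 2, 3 passed (beside 8.81% and 8.80% of all genes): Il15, Il1b and Il1rn.

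**Figure D2:**
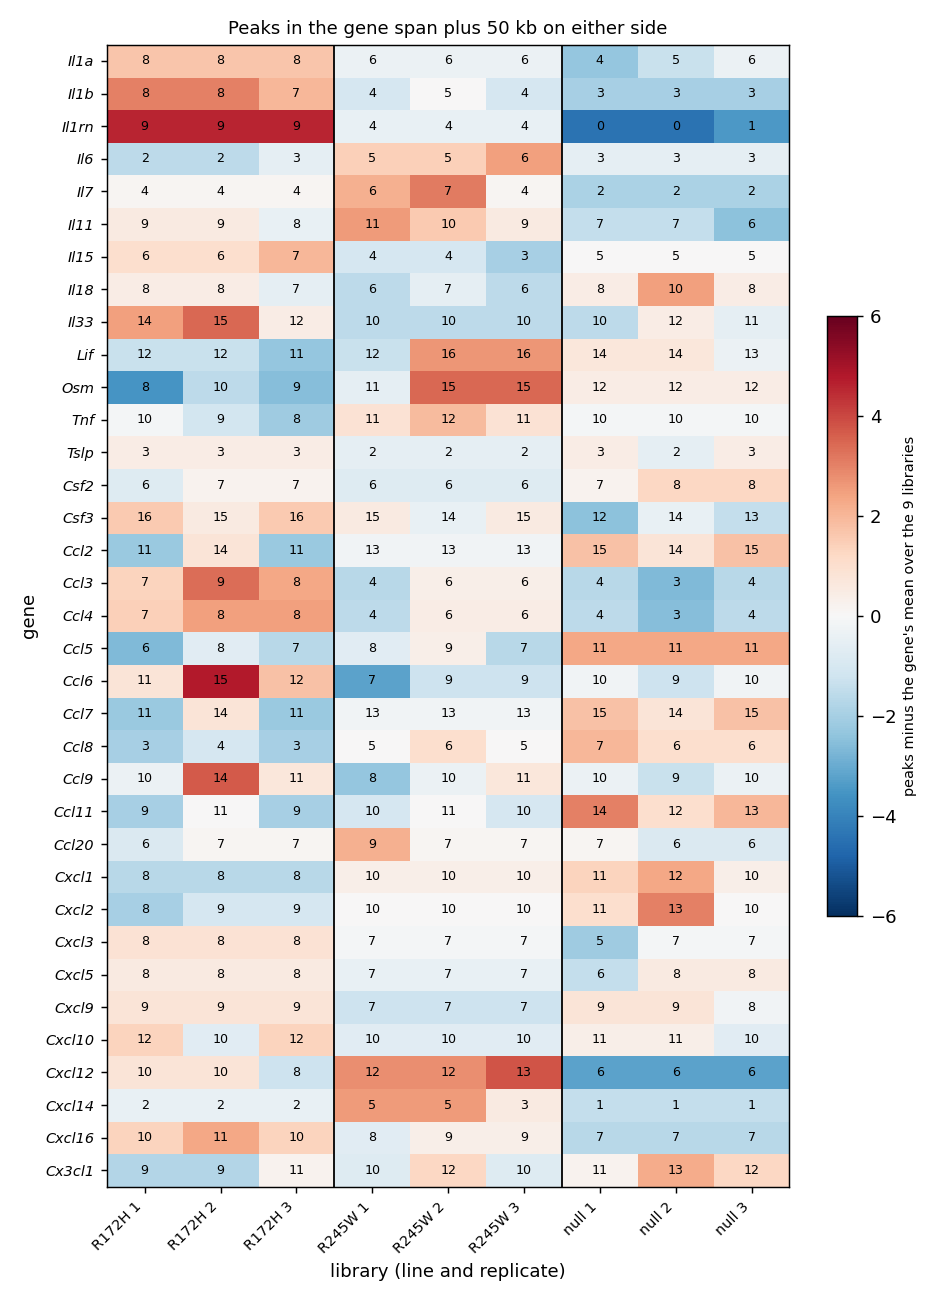
Each cell gives the number of peaks in a gene's window in 1 library, and its colour the difference from that gene's mean over the 9 libraries. The widest contrast is in the Il1rn row, with 9 peaks in each R172H library, 4 in each R245W library and 0, 0 and 1 in the null libraries.

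In pairs, window counts of R172H lay above every null library for 14 genes (40.0%, beside 28.2% of all genes) and below for 7 (beside 16.2% of all genes). R245W lay above null for 9 genes (25.7%, beside 32.8%) and below for 8 (22.9%, beside 7.37%). R172H lay above R245W for 13 genes (37.1%, beside 15.7%) and below for 8 (22.9%, beside 27.2%). Clustered genes share part of their windows, and Ccl2 and Ccl7 had the same counts in every library, so these genes are not separate observations. These counts moved when the lists were cut to equal length. R172H then lay above null for 9 genes and R245W for 5. Null lay above R172H for 12 genes and above R245W for 18. The shares of all genes at equal length are not given. The equal-length counts are therefore not read as particular to the cytokine and chemokine genes.

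Of the 35 genes, Il1rn had the widest difference between line means, and it belongs to the interleukin-1 family. It encodes the receptor antagonist, a secreted protein that occupies the interleukin-1 receptor without signalling. Its window held 9, 9 and 9 peaks in the R172H libraries, 4, 4 and 4 in R245W and 0, 0 and 1 in null. The lines did not overlap, and the means were 9 ± 0, 4 ± 0 and 0.333 ± 0.577 (SD, n = 3 each; exact permutation test, adjusted p = 0.0371). The call held in 12 of 14 alternative settings and was lost with a 20 kb window (adjusted permutation p = 0.0537) and with replicate number as a block (0.182).

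The Il1rn start at 24336860 lay under a peak in R172H only, at the 66.1, 70.7 and 70.7 percentiles with fold enrichments of 8.21, 8.99 and 9.51. No R245W or null library had a peak within 1000 bp of either end of the gene. The AP-1 match shown in capitals in its promoter lay 141 to 135 bases before this start, inside the R172H region chr2:24336150-24337156. The other starts of Il1rn in the table, at 24345291 and 24345371, had no peak in any library. The strongest R172H region of the window, chr2:24313015-24314322, lay 22538 bp before the gene at the 84.9, 83.1 and 83.1 percentiles and was absent from the other 6 lists. Its nearest gene is Il1f10, another member of the interleukin-1 family. A region beyond the gene, chr2:24396961-24397612 near Psd4, was also R172H only (69.1, 72.3 and 68.6).

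Il1a and Il1b encode the agonists interleukin-1 alpha and beta and lie next to each other, so their windows overlap. Neither gene had an open end in any library. The Il1b window held 8, 8 and 7 peaks in R172H, 4, 5 and 4 in R245W and 3, 3 and 3 in null (adjusted permutation p = 0.0371). The Il1a window held 8, 8 and 8, then 6, 6 and 6, then 4, 5 and 6 (adjusted permutation p = 0.0607). In both windows every R172H library lay above every other library, and only the Il1b count passed the test; with lists of equal length its adjusted permutation p was 0.0597. Over the joint neighbourhood of both genes the counts were 12, 12 and 12 in R172H, 7, 8 and 7 in R245W and 5, 6 and 7 in null.

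Of the 14 regions in the Il1a and Il1b neighbourhood, 5 were called in all 9 libraries, beside 29.4% of all regions. None was R245W only or null only, beside 5.79% and 2.74%, and 5 were R172H only, beside 9.83%. The strongest of the 5 lay between the genes at chr2:129337669-129338821, 25748 bp from Il1b, at the 77.2, 73.0 and 72.4 percentiles. The next, chr2:129400163-129400892, lay 28999 bp on the other side of Il1b at 70.8, 72.4 and 66.7. Chromosome 2 as a whole had 1.34 times as many called regions in R172H as in null and 1.25 times in R245W, beside 1.12 and 1.18 over all chromosomes. The part of this excess in the Il1a, Il1b and Il1rn counts was not tested.

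Il33 encodes an alarmin that is stored in the nucleus and released from damaged cells. A peak covered its start at 29925113 in the R172H libraries only, at the 65.3, 69.3 and 71.1 percentiles with fold enrichments of 6.11, 6.49 and 7.01. The second start in the table, at 29945790, also lay under R172H peaks only (68.7, 71.5 and 62.0). Both starts were therefore open in 3 of 3 R172H libraries and in 0 of 6 others, although 1 null library had a weak peak (0.710 percentile) elsewhere in the region of the second. The promoter before this second start carries the TATA box match shown in capitals, 29 to 24 bases before the start.

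Other regions around Il33 did not all follow this pattern. The region chr19:29917315-29918164, 6949 bp before the gene, was called in R245W (75.1, 79.5 and 75.9) and null (72.5, 69.3 and 69.9) and in no R172H library. A region 24066 bp before the gene, chr19:29899997-29901047, was called in all 9 libraries at the 78.2, 80.9 and 78.2 percentiles in R172H, 32.8, 41.1 and 34.2 in R245W and near 24.1 to 34.7 in null. Thus R172H had peaks at the starts, and R245W and null shared a peak upstream that R172H lacked. Window counts were 14, 15 and 12 in R172H, 10, 10 and 10 in R245W and 10, 12 and 11 in null (adjusted permutation p = 0.0718, not past the threshold). On chromosome 19 the R172H and R245W lines had 1.41 and 1.34 times as many called regions as null, the largest ratio of R172H among the chromosomes that carry these genes, and its part here was not tested.

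**Figure D3:**
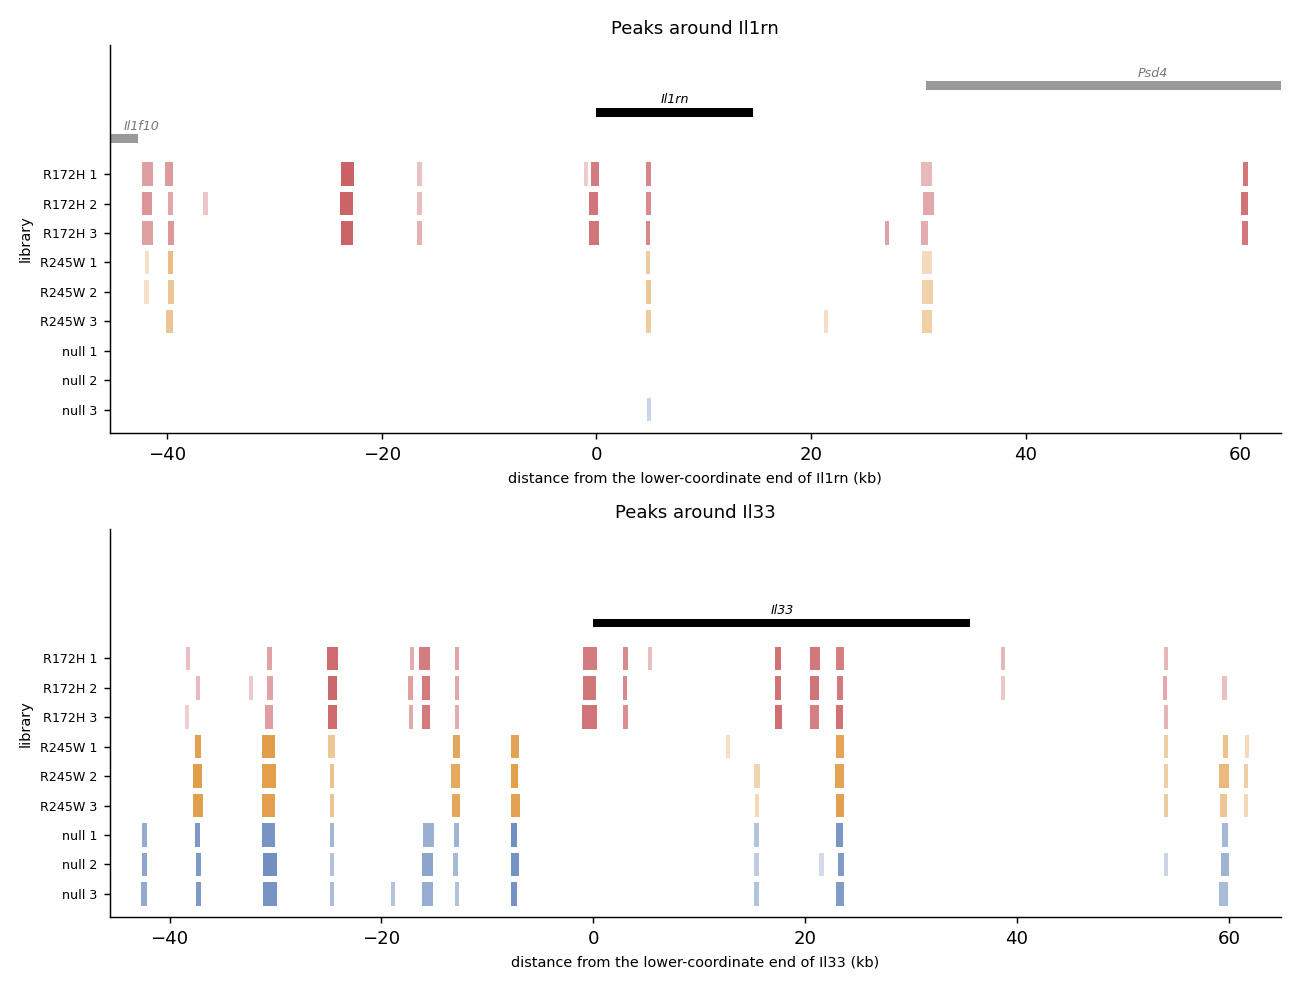
Peaks of the 9 libraries around Il1rn (top) and Il33 (bottom), by distance in kb from the lower-coordinate end of the gene; each bar is a peak, darker where its −log10 q-value ranks higher in its own list, and black bars are genes of the group. R172H rows carry a peak at the start of both genes, and the null rows of Il1rn are empty but for 1 peak.

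Il18 encodes an interleukin-1 family cytokine that is activated by caspase-1. Its start at 50554700 lay under a strong peak in R245W (83.5, 83.4 and 81.3 percentiles) and null (89.2, 87.5 and 89.9). In R172H 1 library of 3 had a weak peak near it (15.4 percentile), and none had one over the promoter stretch itself. The start therefore missed the call by 1 weak R172H peak, while the promoter stretch was called in R245W and null against R172H. Window counts were 8, 8 and 7, then 6, 7 and 6, then 8, 10 and 8 (adjusted permutation p = 0.0825).

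Among the interleukin-6 family, Il6 was open at its start in all 9 libraries, at percentiles from 84.8 to 91.9, which placed it among the stronger peaks of every list. Its window held 2, 2 and 3 peaks in R172H, 5, 5 and 6 in R245W and 3, 3 and 3 in null, so R245W lay above both other lines without passing the test (adjusted permutation p = 0.0607). Il11, a cytokine of bone and stromal cells that signals through the same co-receptor, had no open gene end. Its second start, at 4778141, was inside the gene and lay under a peak in R172H (76.7, 73.4 and 73.7) and R245W (54.1, 61.0 and 48.0), while in null the peaks of that region (43.2, 26.6 and 40.4) did not reach the promoter stretch. The difference at Il11 is one of peak edges, since the region chr7:4776707-4778639 was called in all 9 libraries.

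Lif and Osm, both interleukin-6 family cytokines that act on bone cells, are neighbours on chromosome 11. The Lif start was called in R245W against R172H because only R245W peaks (64.3, 64.1 and 59.8) came within 1000 bp of it. The region itself, chr11:4258474-4259357, held a peak in all 9 libraries at the 49.6 percentile or above, and with 500 bp or 2500 bp in place of 1000 bp Lif was not called. Inside Lif, chr11:4270852-4271661 was called in R245W (32.8, 36.7 and 33.6) and null (35.6, 20.9 and 29.3) and not R172H. Just beyond Lif, chr11:4276185-4276981 was R172H only (57.0, 54.3 and 55.3). The Osm window held 8, 10 and 9 peaks in R172H, 11, 15 and 15 in R245W and 12, 12 and 12 in null, with R172H below every other library and an adjusted permutation p of 0.0607.

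Il7 and Il15 encode growth factors of lymphocytes, and both had an open end in all 9 libraries. The Il15 window held 6, 6 and 7 peaks in R172H, 4, 4 and 3 in R245W and 5, 5 and 5 in null, with no overlap between lines (6.33 ± 0.577, 3.67 ± 0.577 and 5 ± 0, SD, n = 3 each; adjusted permutation p = 0.0371). The Il15 regions that differed were weak and inside the gene, 2 of them R172H only (at or under the 25.3 percentile) and 2 null only (at or under 37.7), and with lists of equal length the adjusted permutation p was 0.0697. Il7 had 4, 4 and 4 peaks in R172H, 6, 7 and 4 in R245W and 2, 2 and 2 in null (adjusted permutation p = 0.0607). The Il7 region chr3:7607114-7607680, inside the gene, was R245W only at the 58.4, 65.3 and 58.0 percentiles.

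Tslp, an epithelial cytokine that acts on dendritic cells, was covered by adjacent regions that split by line. The lower one held a peak in all 9 libraries (54.1 to 75.9 percentiles), and the higher one, chr18:32817780-32819018, only in R172H (62.4, 60.0 and 56.4). Within 1000 bp of the lower-coordinate end of Tslp, peaks lay in R245W (73.0, 75.9 and 69.8) and 2 null libraries (71.2 and 65.7). No R172H library had one there. Csf3, the granulocyte growth factor, was open in all 9 libraries and Csf2, which also acts on macrophages, in none, although both had 6 peaks or more in the window in every library. Tnf, a central inflammatory cytokine, had no open end in any library and 8 to 12 peaks in its window, where the regions called in all 9 libraries lay nearest to Prrc2a, Aif1, Lst1, Ltb, Nfkbil1 and Ddx39b.

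The CXC chemokines Cxcl5, Cxcl3, Cxcl1 and Cxcl2 draw neutrophils through the receptor Cxcr2 and lie within 1 neighbourhood of 247 kb on chromosome 5. At the ends of 3 of the 4 genes R172H lacked a peak that R245W, null or both had. The Cxcl2 start lay under a peak in R245W (33.5, 33.2 and 30.2 percentiles) and null (24.8, 27.5 and 25.3) and under none in R172H. The Cxcl3 start lay under a strong peak in R245W only (chr5:90785302-90786596, 72.2, 75.4 and 73.3, with fold enrichments of 10.4, 11.3 and 10.4). The null line had a peak at the other end of Cxcl3 instead, chr5:90788129-90788578 (58.6, 52.3 and 56.0), and R172H had none at either end. At Cxcl3 the same call of an open end in R245W and null thus rests on different regions.

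The Cxcl1 start was open in all 9 libraries, at the 46.0, 49.2 and 54.5 percentiles in R172H, 91.0, 90.1 and 90.5 in R245W and 93.1, 94.3 and 94.5 in null. Its fold enrichment in the authors' lists was 6.69, 7.07 and 7.94 in R172H, 10.6, 10.1 and 10.1 in R245W and 9.83, 9.50 and 10.2 in null. At the lower-coordinate end of Cxcl5 a peak was called in R245W (54.9, 65.6 and 61.7) and null (66.5, 68.8 and 65.8) and not in R172H. A region 2143 bp beyond the other end of Cxcl5 was called in all 9 libraries, so Cxcl5 left the count when 2500 bp was used. Across the neighbourhood, then, R172H had no peak at an end of 3 of the 4 genes, and percentiles of 46.0 to 54.5 beside 90.1 to 94.5 in the other lines at the start of Cxcl1.

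The total number of peaks in this neighbourhood did not differ in the same way. It was 20, 21 and 21 in R172H, 18, 18 and 18 in R245W and 18, 22 and 19 in null. The Cxcl1 window alone held 8, 8 and 8, then 10, 10 and 10, then 11, 12 and 10. That of Cxcl2 held 8, 9 and 9, then 10, 10 and 10, then 11, 13 and 10 (adjusted permutation p = 0.0607 each). Both passed with lists of equal length, and their windows overlap. R172H lay above R245W at Cxcl3 and Cxcl5 (8, 8 and 8, then 7, 7 and 7 at each). Null held 5, 7 and 7 at Cxcl3 and 6, 8 and 8 at Cxcl5. Of the 33 regions of the neighbourhood 8 were R172H only (beside 9.83% of all regions), 1 R245W only (5.79%) and 3 null only (2.74%). A further 5 were in R245W and null but not R172H (6.21%), and 8 in all 9 libraries (29.4%). The R172H line therefore had its own regions here, and 1 of them, chr5:90793888-90795333 (65.9, 68.9 and 67.7), has Cxcl15, another CXC gene, as its nearest gene. The strongest R172H region that R245W lacked lay 5736 bp before Cxcl1 at chr5:90884627-90885509, at the 90.1, 91.7 and 90.1 percentiles in R172H, absent in R245W and at 10.1 and 16.3 in 2 null libraries.

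Near it were regions of the opposite kind. The region chr5:90881675-90882252, 8993 bp before Cxcl1, was called in R245W (64.1, 61.1 and 58.9) and null (45.1, 48.6 and 58.4) and not R172H. The region chr5:90900207-90901151, 2748 bp before Cxcl2, was called in R245W (52.7, 51.2 and 58.4) and null (71.8, 74.6 and 75.4) and not R172H. Another, chr5:90861844-90862688, 28557 bp before Cxcl1, was null only (64.9, 62.0 and 61.8). These 3 regions and the 1 before them lie close to each other and give 3 different patterns over the lines.

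**Figure D4:**
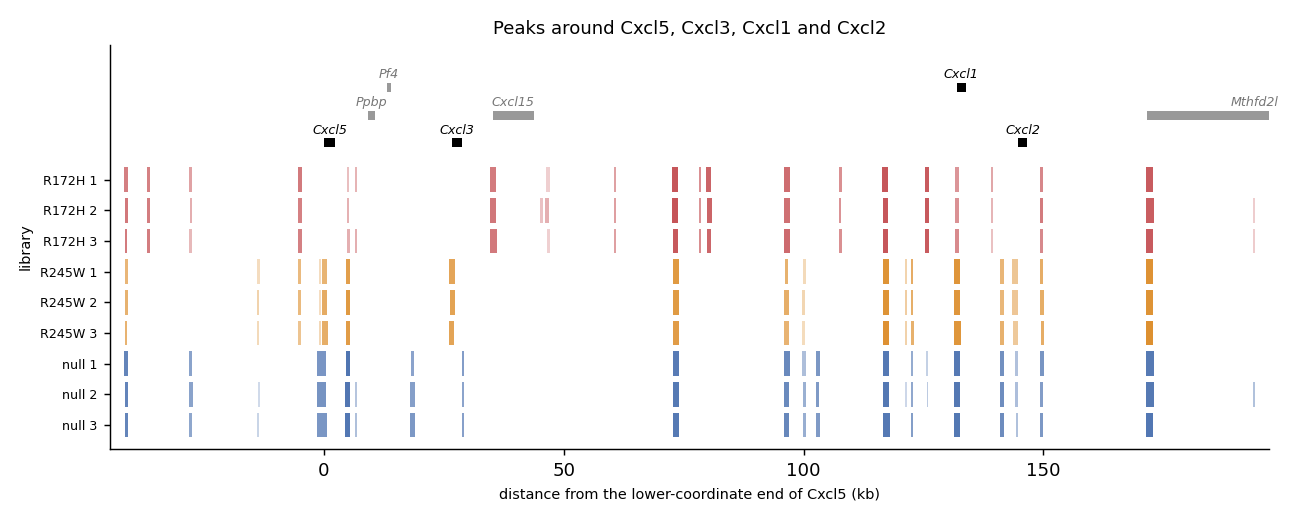
Peaks of the 9 libraries around Cxcl5, Cxcl3, Cxcl1 and Cxcl2, by distance in kb from the lower-coordinate end of Cxcl5; each bar is a peak, darker where it ranks higher in its own list, black bars are genes of the group and grey bars other genes. At Cxcl3 only R245W has a peak over the start, at Cxcl2 R245W and null, and at Cxcl1 all 9 libraries.

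Cxcl9 and Cxcl10 encode interferon-induced chemokines that draw T cells through Cxcr3. The Cxcl10 start was open in all 9 libraries, at percentiles from 77.5 to 83.7, a narrow range over the lines. The Cxcl9 start had no peak in any library. The Cxcl9 call in R172H (82.9, 82.2 and 80.4; chr5:92321368-92322388) came from the far end of the gene, with fold enrichments of 13.9, 11.9 and 12.4, and is not a peak at its promoter. A region 9055 bp before the Cxcl10 start, chr5:92357944-92358468, was called in R172H (84.5, 84.4 and 83.7) and null (44.1, 44.3 and 38.8) and not in R245W.

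Cxcl12 encodes the chemokine that retains blood stem cells in the marrow, and its start was open in all 9 libraries (72.8 to 83.0 percentiles). Its window held 10, 10 and 8 peaks in R172H, 12, 12 and 13 in R245W and 6, 6 and 6 in null (9.33 ± 1.15, 12.3 ± 0.577 and 6 ± 0, SD, n = 3 each; adjusted permutation p = 0.0371). R245W was highest and null lowest, with no overlap. The region chr6:117206925-117207909, 25557 bp beyond the gene, was called in null (74.3, 75.6 and 76.7) and R245W (25.5, 35.8 and 37.6) and not R172H. The mutant lines shared regions that null lacked, 18055 bp and 895 bp beyond the gene and 37255 bp before it, and most of these peaks were weak. The region at 18055 bp stood at the 62.85, 60.9 and 54.6 percentiles in R172H and at 23.8, 28.2 and 8.17 in R245W. The one at 895 bp stood at 10.0, 28.5 and 16.9, then 21.9, 22.7 and 20.1. The one at 37255 bp stood at 21.1, 10.4 and 25.2, then 1.83, 11.4 and 20.1. The Cxcl12 call was lost without any 1 of the 3 null libraries (adjusted permutation p from 0.0615 to 0.0629) and with lists of equal length (0.0571). Chromosome 6 had 1.33 and 1.41 times as many called regions in R172H and R245W as in null, and its part was not tested.

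Cxcl14, a chemokine of epithelia and stroma, had no open end, and its window held 2, 2 and 2 peaks in R172H, 5, 5 and 3 in R245W and 1, 1 and 1 in null (adjusted permutation p = 0.0371). The regions found in R245W only were weak, at or under the 29.5 percentile, and the call was lost without any 1 R172H or null library (adjusted permutation p from 0.0794 to 0.0891) and with lists of equal length (0.0697). Chromosome 13 had 1.34 times as many called regions in R245W as in null and 1.13 times in R172H, and its part was not tested. Cxcl16, a membrane-bound chemokine, held 10, 11 and 10 peaks in R172H, 8, 9 and 9 in R245W and 7, 7 and 7 in null (adjusted permutation p = 0.0371), and lost its call without any 1 null library (0.0615 to 0.0629) and with equal lengths (0.0697). Its strongest region found in R172H only, chr11:70403141-70404656 (86.1, 86.2 and 87.0), lay 49733 bp away at the edge of the window and nearer to Pelp1.

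Cx3cl1, the other membrane-bound chemokine of the group, was open at its start in all 9 libraries (79.4 to 86.6 percentiles). The strongest null-only region in any of the windows, chr8:94824804-94825648 (81.4, 81.3 and 82.4), lay 42377 bp from Cx3cl1 and nearest to Ciapin1. The counts of the Cx3cl1 window overlapped between lines (9, 9 and 11, then 10, 12 and 10, then 11, 13 and 12; adjusted permutation p = 0.210).

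The CC chemokines Ccl2, Ccl7, Ccl11 and Ccl8, which draw monocytes and eosinophils, form a neighbourhood of 181 kb on chromosome 11. It held 13, 16 and 13 peaks in R172H, 16, 17 and 16 in R245W and 19, 17 and 18 in null. Null lay above both other lines but for a tie with the highest R245W library. Of its 25 regions 10 were called in all 9 libraries, beside 29.4% of all regions. The order of the lines was the reverse of that at Il1a and Il1b, and the part of list length in these totals was not tested.

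Ccl2, Ccl7 and Ccl8 had an open end in every library. Ccl8 was the strongest of them in null, where the peak that covers the gene stood at the 90.8, 90.9 and 92.6 percentiles, against 73.7, 74.5 and 71.8 in R172H and 77.6, 77.5 and 73.9 in R245W. Null alone also had a peak 4900 bp before Ccl8, chr11:82109380-82110285 (64.3, 69.6 and 69.0). The Ccl8 window held 3, 4 and 3 peaks in R172H, 5, 6 and 5 in R245W and 7, 6 and 6 in null (adjusted permutation p = 0.0607). R172H lacked the peak 123 bp beyond Ccl7 that R245W (54.8, 48.8 and 51.3) and null (59.5, 61.1 and 60.3) shared, and had its own 13838 bp before Ccl2 (75.0, 70.0 and 76.0). Ccl11, the eosinophil attractant eotaxin, had no open end and 9, 11 and 9, then 10, 11 and 10, then 14, 12 and 13 peaks (adjusted permutation p = 0.0718). With lists of equal length Ccl2, Ccl7, Ccl8 and Ccl11 all passed the test (adjusted permutation p = 0.0357 each), with null highest. Their windows overlap, so these are not separate results.

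Ccl5, Ccl9, Ccl6, Ccl3 and Ccl4 form the other CC neighbourhood, 239 kb long, with 15, 19 and 17 peaks in R172H, 14, 17 and 15 in R245W and 17, 16 and 17 in null. The totals overlapped, but the genes at its ends differed in opposite directions. Ccl5, the T cell attractant RANTES, had 6, 8 and 7 peaks in R172H, 8, 9 and 7 in R245W and 11, 11 and 11 in null (adjusted permutation p = 0.0718). Ccl3, the macrophage inflammatory protein, had 7, 9 and 8 in R172H, 4, 6 and 6 in R245W and 4, 3 and 4 in null (adjusted permutation p = 0.0607), and its window is nearly that of Ccl4. None of these counts passed the threshold.

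Only Ccl9 was open in all 9 libraries here. Beyond Ccl4, 2 regions split the mutant lines: chr11:83665664-83666220, 981 bp away, was R245W only (55.1, 59.5 and 53.1), and chr11:83679476-83680180, 14793 bp away, was R172H only (73.6, 79.4 and 75.6). Ccl20, which draws cells through Ccr6 and lies on chromosome 1, had a peak at its far end in all 9 libraries, at 60.7, 54.0 and 51.4 in R172H, 84.3, 87.0 and 83.4 in R245W and 91.8, 91.8 and 94.3 in null. At the Ccl20 start itself 2 R172H libraries had a weak peak (13.7 and 17.0 percentiles) and no other library did.

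**Figure D5:**
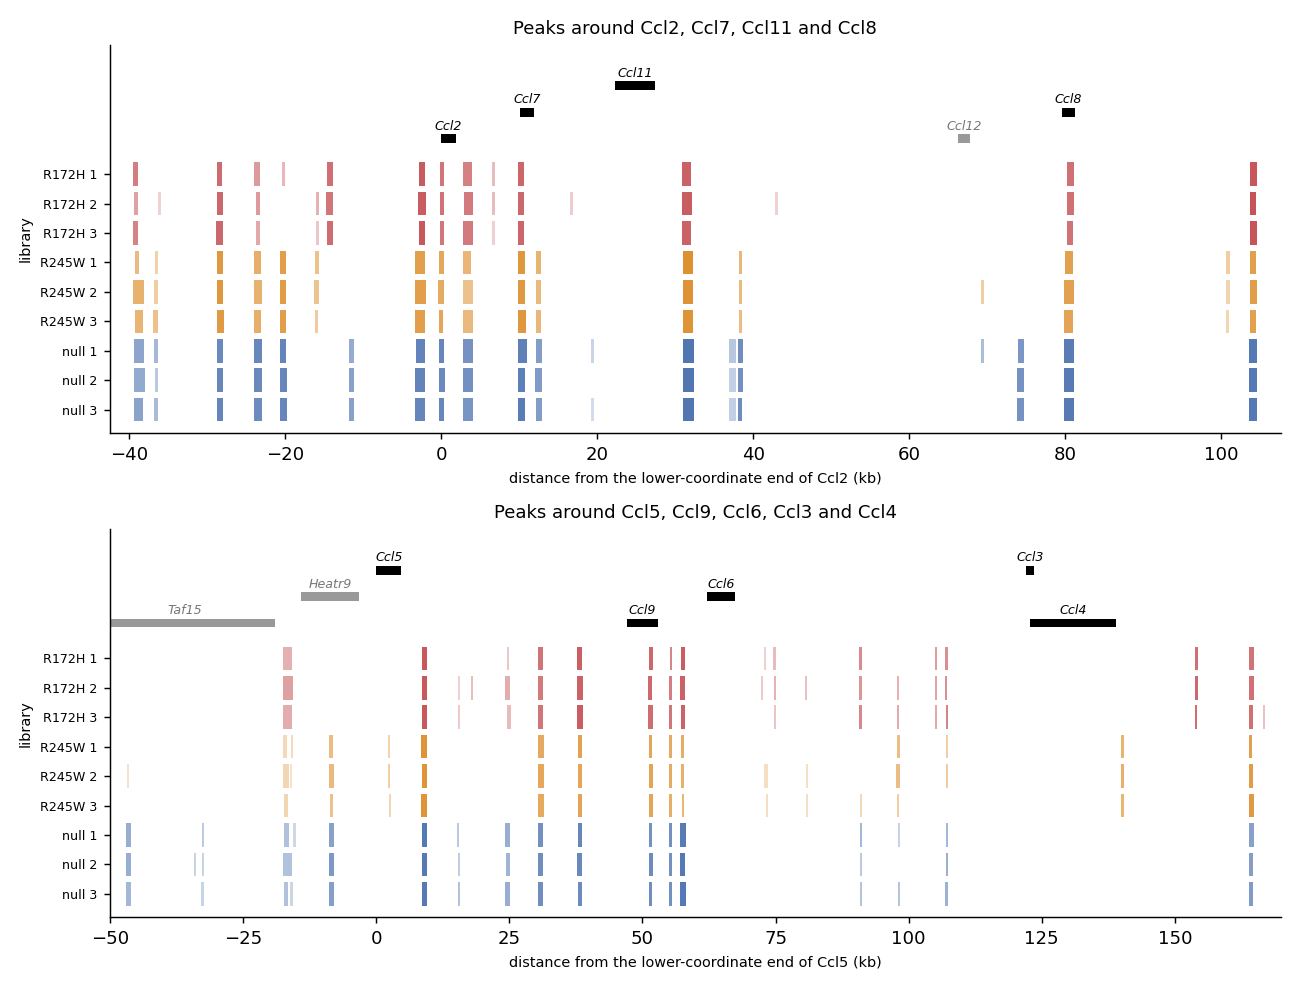
Peaks of the 9 libraries around Ccl2, Ccl7, Ccl11 and Ccl8 (top) and around Ccl5, Ccl9, Ccl6, Ccl3 and Ccl4 (bottom), by distance in kb from the lower-coordinate end of the first gene; each bar is a peak, darker where it ranks higher in its own list. The null rows carry a peak just before Ccl8 that the other rows lack, and the R172H and R245W rows each carry their own peak beyond Ccl4.

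The receptors of these proteins, a list of 36 genes, were open at an end in every library for 14 and in none for 13, where 55.0% and 31.3% of all genes were. Open in all 9 were the interleukin-6 family receptors Il6ra, Il6st, Il11ra1 and Osmr, both tumour necrosis factor receptors and Cxcr4, which binds Cxcl12. Cxcr2 and Cxcr1, which bind the neutrophil chemokines, and Csf3r were open in none. Genes called between lines by both ends together, beside genome shares from 0.544% to 3.30%, were called at the Il1r1 start in R172H only (weak, 24.5, 17.9 and 6.45 percentiles), the far end of Ccr2 in R172H only (53.5, 68.2 and 56.5), the Lifr start in R245W only (29.5, 25.7 and 31.2), and the Cxcr3 start in R245W and null and not R172H.

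In the three-line test 4 of the 36 receptors passed, beside 9.63% of all genes. Il1rl1, the receptor of interleukin-33, had 7, 5 and 5 peaks in R172H, 10, 12 and 11 in R245W and 15, 15 and 15 in null. Il18r1, its neighbour, had 2, 1 and 1, then 4, 5 and 5, then 7, 7 and 7, and shares part of the same window. Lifr had 15, 14 and 14, then 18, 17 and 17, then 12, 13 and 13, and Ackr3, the scavenging receptor of Cxcl12, had 5, 6 and 6, then 11, 11 and 11, then 9, 9 and 10. The adjusted p was 0.0371 for each of the 4 (exact permutation test).

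Intracellular signalling genes were open almost throughout. The list of 32 ran from Myd88 and the kinases to the NF-kB subunits, Jak and Stat genes and the feedback inhibitors Nfkbia, Tnfaip3 and Socs3. Of these genes 29 were open at an end in every library, beside 55.0% of all genes. Nfkb2 had none, Casp1 was open in 2 of 3 R172H libraries and all others, and Nlrp3 in 2 R172H libraries only. Taking both ends of a gene together, no signalling gene was called between lines, beside 0.544% to 3.30% of all genes by pair and direction. By single ends, the Casp1 start was open in all R245W and null libraries and in no R172H library, and the lower-coordinate end of Nfkbiz in all R245W, 1 R172H and no null library. None of the 32 passed the three-line test, beside 9.63% of all genes.

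Markers of the labelled cell type and of others were read in the same lists. Of all genes, 55.0% were open at an end in all 9 libraries and 31.3% in none. Of 7 osteoblast genes 5 (Runx2, Sp7, Alpl, Col1a1 and Spp1) were open in all 9 libraries, and Bglap and Ibsp, genes of mature osteoblasts, in none. Of 7 macrophage genes Spi1 and Cd68 were open in all 9 and the defining markers Ptprc, Itgam and Adgre1 in none, while Csf1r was open in the R245W libraries only. Of the lymphocyte genes Cd3g and Ncr1 were open in none, Cd79a in all 9 and Cd3e in R172H only. The Cd79a and Cd3e calls came from the far ends of these genes. At the Cd79a start 1 R172H library, 2 R245W libraries and no null library had a peak. Of 5 fibroblast genes Pdgfrb, Col1a2 and Dcn were open in all 9 libraries and Thy1 in R172H only, by a peak at its higher-coordinate end. Pdgfra was open in 2 R245W libraries, all null libraries and no R172H library. The part of cell state or of other cells in the cytokine differences was not tested.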

How the data were processed

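The 9 deposited narrowPeak lists, 1 per library, were used as the authors deposited them. Peaks were called with MACS2 2.1.0 on build GRCm38, and Bowtie 1.1.2, Trimmomatic 0.33, bcl2fastq 2.17 and deepTools are also named, per the submitters' processing notes. Their settings, any read filter and any Tn5 shift: not given in the sources used here. For every deposited peak the authors give a score, a fold enrichment ratio, a −log10 p-value, a −log10 q-value (at least 1.30) and a summit position.

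Gene spans and promoters came from RefSeq (GRCm38.p6), without exons. The members and lists were chosen with earlier results of these data known. Values per library are given for genes with a called gene end or a passing count, and the 3 strongest regions per pair and direction; other genes were named after their values were seen. Pairs of 3 libraries cannot go below an exact permutation p of 0.1, so pairs carry no p-value. Promoter stretches (250 bases before to 50 after a start) were added after seeing the data. Scripts were tested on simulated data. The software was Python 3.11.15 with pandas 2.3.3, matplotlib 3.10.9, scipy 1.17.1 and numpy 2.4.6.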

Additional observations from a re-analysis of the deposited data

How the results depend on the processing

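The gene ends called in R172H (Il1rn, Cxcl9 and Il33) were called at every threshold, list length and distance tried except that Cxcl9 was not called by promoter stretch, while window counts moved with the peak threshold, list length and distance. With a −log10 q of 5 or more the three-line test passed 6 genes (beside 10.4% of all genes), 2 of them among the first 6 (Il1b and Il1rn). The three-line test passed 0 of the 35 genes with a 20 kb window and 0 with replicate number as a block (smallest p 0.0278 over 36 assignments, 0 of 19290 genes); leaving out 1 library gave 3 to 8. Correlations of same-numbered libraries ran from -0.0082 to 0.0278 over 9 pairs, and those of differently numbered ones from -0.0335 to 0.0331 over 18. Most of the former were positive and most of the latter negative, but the ranges overlapped, so the numbers were not taken as a pairing. With equal list lengths, window counts lay above null for 9 genes in R172H and 5 in R245W, and null lay above R172H for 12 and above R245W for 18. With a −log10 q of 5 or more null lay above R172H for 11. With 20 kb null lay above R172H and above R245W for 4 each. Gene ends open in R245W and not null numbered 2 with 2500 bp (Ccl5 and Ccl4), 1 with at least 2 of 3 libraries (Ccl4), 2 by promoter stretch (Cxcl3 and Il11) and 0 to 1 with 1 library left out (Ccl4 without R245W replicate 1, Lif without null replicate 1). With 20 kb fewer regions are counted: 30 in R172H and not null, 24 the reverse, 26 in R172H and not R245W, 22 the reverse, 19 in R245W and not null and 14 the reverse; with equal lengths R245W and not null gave 17. Pair counts at these other settings are given here without the shares of all genes or regions, so they are not read as particular to the 35 genes. Read depth is unknown, so a missing peak cannot be told apart from too few reads.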
